A study of Homo sapiens with 6 samples.

Results

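The arrays described here measured gene expression in control MDA-MB-231 cells, an established human breast cancer cell line of the triple-negative kind. They are the 2 arrays titled shNCT among the 6 arrays of the series, and they were chosen by that title alone. These cells carried the control construct named shNCT, and all groups of the series grew in RPMI1640 medium with 10% serum and 2.5 µg/ml puromycin, which keeps cells that hold a resistance gene. The other 4 arrays are of the same line with lentiviral hairpins against S100A10, and no value below compares them with the controls. The labels do not say what NCT stands for, which vector carried it, whether the infected cells were a pool or a clone, or whether the 2 arrays came from separate cultures, so the spread given may be technical.

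Triple-negative tumours lack the oestrogen receptor, the progesterone receptor and amplified HER2. Within that class, MDA-MB-231 is usually placed among mesenchymal-like lines, in which the junctions and the cadherin of epithelial cells give way to vimentin, motility genes and matrix-degrading enzymes under the ZEB, SNAI and TWIST repressors. The genes of the 3 defining receptors, ESR1, PGR and ERBB2, are not analysed here, and neither is CDKN2A.

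Signal was read as the log2 of the deposited intensity for 15674 probe sets with a gene symbol, out of 16965. On both arrays together the mean log2 level ran from 2.58 to 17.66, with a median of 7.98 and quartiles of 5.01 and 10.78. The table carries no detection calls, so the level of 186 probe sets of olfactory receptors, a family that breast epithelium does not use, served as a floor. Their 95th percentile was 5.86 (intensity 57.9) on replicate 1 and 5.67 (intensity 51.0) on replicate 2. A probe set is called above this level when it exceeded it on both arrays, which held for 10309 of 15674, or 65.8%; 4908 were above it on neither array and 457 on 1 array. The top decile starts at log2 12.60 on both arrays, and 1498 probe sets, or 9.56%, reached it on both. Probe sets differ in how well they bind their target, so the ranking is one of signal and not of messenger RNA amounts. Other gene families, taken as hardly used by breast cells, gave a second floor. They were sought by symbol among taste and vomeronasal receptors, crystallins, protamines and the keratin-associated proteins of hair. The floor depended on the last family. With it, 101 probe sets put the floor at 8.17 and 7.90, and 7569 probe sets exceeded it. Without that family the floor lay at 6.05 and 5.96, and 10009 exceeded it, but it rested on only 29 probe sets. Some keratin-associated genes were themselves bright in these cells, so the higher floor is a strict one. Counts are given with it (the strict floor) and without the keratin-associated genes (the reduced floor) where they change by over 1.5 times.

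**Figure D1:**
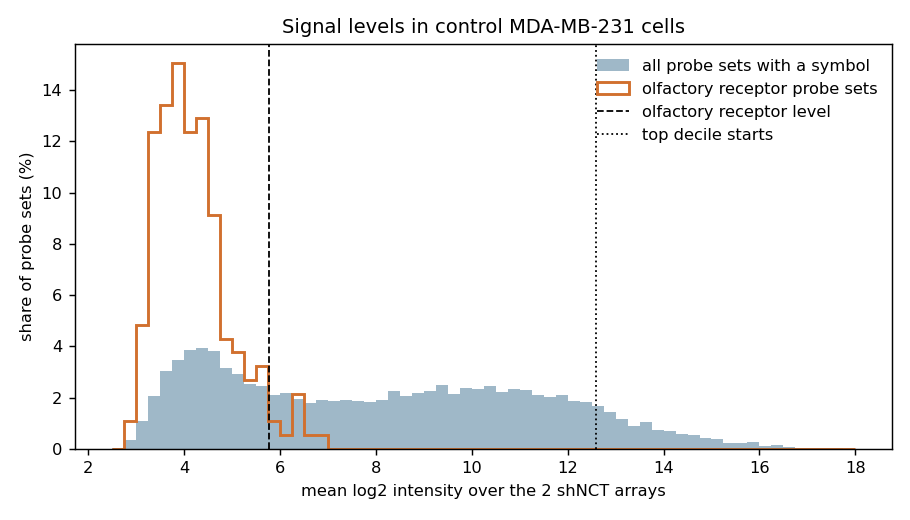
Histogram of mean log2 intensity over the 2 shNCT arrays, as the share of probe sets per bin, for all probe sets with a symbol (filled) and for the 186 olfactory receptor probe sets (line). The dashed line is the olfactory receptor level and the dotted line the start of the top decile; 65.8% of all probe sets were above the first on both arrays.

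The 2 arrays gave nearly the same ranking, with Pearson's r of 0.996 and Spearman's rho of 0.994 across probe sets, which are not independent replicates. The log2 difference between them had an SD of 0.287 over all probe sets. It was 0.143 in the brightest decile and 0.367 in the second dimmest, so the arrays lay closer for bright genes. Some at the very top were nearly identical, such as MT2A at log2 17.59509 and 17.59506 and GAPDH at 17.43431 and 17.43408. Others there were not, such as EEF1A1 at 17.18 and 17.28. The scaling steps are not known, so this closeness is not a measure of precision. Only 30 probe sets differed by more than 2-fold, and 4 of these were above the olfactory receptor level. Among these, the Argonaute gene AGO4 read 90.6 and 185 and the transfer RNA synthetase gene TARS3 67.3 and 136. All 4 were higher on replicate 2. RASD1, a Ras-like gene, differed by just under 2-fold and was higher on replicate 1, at 153 and 77. Among the 10 genes above the level that differed most, 7 were higher on replicate 2 and 3 on replicate 1, and their mean levels lay between 6.58 and 9.10.

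The strongest signals came from genes of the cytoskeleton, glycolysis, translation and metal binding. TUBA1B, an alpha-tubulin, ranked first with intensities of 207721 and 207299.9. MT2A, a metallothionein that binds zinc and copper, ranked second at 197993 and 197989, the glycolytic enzyme gene GAPDH ranked 3 at 177113 and 177085 and ACTG1, cytoplasmic gamma-actin, came next at 174170.4 and 174057. After EEF1A1, the elongation factor of translation (148319.6 and 159261), came ANXA2 in rank 6 at 135978 and 150603. Its protein, annexin A2, binds membrane phospholipid and pairs with the S100A10 protein. S100A10, the gene that the study's other arrays target, ranked 22 in these controls at 88860.2 and 92938, with a level of 16.47 ± 0.046 (SD, n = 2). VIM, the intermediate filament vimentin, ranked 20 at 92902 and 92358. The 30 brightest probe sets spanned log2 16.34 to 17.66, and the 30 brightest of one array and of the other had 27 in common. Of the 29 gaps between neighbours in that order, 10 were wider than their pooled SD of 0.048, so most neighbouring ranks there do not differ beyond the spread.

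Other genes in the top percent of the ranking that lay in no gene list had varied roles. H2BC12 (126749.5 and 128546), H4C3 (82005 and 84316) and H1-4 (83444 and 81700.1) encode histones. ASPH, an aspartate beta-hydroxylase of the endoplasmic reticulum, read 104544 and 94851, and ERRFI1, a feedback inhibitor of the epidermal growth factor receptor, 79615 and 83672. RHOA, a GTPase that drives actin contractility, read 81198 and 77446, IER3, an immediate early gene, 78481 and 78704, and BMP4, a secreted ligand of the TGF-beta superfamily, 76463 and 72896.

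Metallothioneins stood out as a family among the brightest genes, in which MT1X ranked 24 and MT1G 29. MT1X read 87162 and 90908, MT1G 81669.5 and 86361, MT1E 68474 and 71009.8, MT1H 27204 and 26772, MT1M 24441 and 26726 and MT1F 13709.6 and 13476. Members known from other tissues had little signal, MT3 at 104 and 66.4 and MT4 at 37.8 and 31.7. The MT1 genes and their pseudogenes are near-identical copies, so their signals may be mixed. The members other than MT2A, MT1X and MT1G were named after their values had been seen. Metallothionein promoters are textbook targets of the zinc-sensing factor MTF1, which binds short metal response elements. The promoters of the brightest members are shown for this reason, from RefSeq, GRCh38.p14, plus strand, as the 250 bases before the transcription start, with capitals marking each match to the element's core (TGCGCNC or TGCACNC, either strand):
MT2A, chr16:56608334-56608583: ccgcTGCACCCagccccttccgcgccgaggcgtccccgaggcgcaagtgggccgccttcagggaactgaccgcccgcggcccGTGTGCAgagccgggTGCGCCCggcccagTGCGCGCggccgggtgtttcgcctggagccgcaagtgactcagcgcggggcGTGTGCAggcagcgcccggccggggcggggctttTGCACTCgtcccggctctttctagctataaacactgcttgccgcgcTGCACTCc
MT1X, chr16:56682220-56682469: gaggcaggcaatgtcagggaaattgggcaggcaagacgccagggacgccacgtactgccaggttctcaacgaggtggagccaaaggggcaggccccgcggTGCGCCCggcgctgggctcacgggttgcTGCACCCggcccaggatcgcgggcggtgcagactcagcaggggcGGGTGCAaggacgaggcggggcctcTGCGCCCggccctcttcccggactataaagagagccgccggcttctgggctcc
The stretch before MT2A held 7 matches and that before MT1X held 4. A window of 300 bases around the start (250 before, 50 after) was at hand for 12728 of 15669 genes, and 0.731% of these held 4 or more matches in it. In that window MT2A held 8, MT1X 4, MT1H 8 and MT4 3, so their order was not that of the signal. A match is a run of letters and not a measured binding site, and these motifs were looked for after the levels had been seen.

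Cytosolic ribosomal protein genes gave the highest list median. Of 57 listed, 33 were measured; 32 were above the olfactory receptor level, 31 lay in the top decile, and the median was 15.73, against 65.8% and 9.56% of all probe sets. RPL38 read 121628 and 119230.2, RPS23 105938 and 96883, RPS15 95649.5 and 103190.5, RPL35 81381 and 84964 and RPS4X 82029.8 and 79374. The member that was not above the level was RPL10L, a retrogene of the testis (22.1 and 23.2), and RPL3L, the paralog of striated muscle, was the lone member above it but outside the top decile (343 and 372). Messages for ribosomal proteins typically begin with a C and a run of pyrimidines, the 5′ terminal oligopyrimidine tract, through which the mTOR pathway sets their translation. The starts of the 5 brightest listed members are shown to let this be seen, as 10 bases before the start and 20 from it on, with capitals from the start base to the end of the tract (RefSeq, GRCh38.p14):
RPL38, chr17:74203668-74203697, plus strand: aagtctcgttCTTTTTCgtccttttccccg
RPS23, chr5:82278335-82278364, minus strand: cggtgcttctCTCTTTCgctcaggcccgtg
RPS15, chr19:1438386-1438415, plus strand: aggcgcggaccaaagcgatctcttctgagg
RPL35, chr9:124861938-124861967, minus strand: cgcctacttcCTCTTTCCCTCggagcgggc
RPS4X, chrX:72277229-72277258, minus strand: ctccagccccaatttctacgcgcaccggaa
A tract was read, in the sense of the transcript, as a C at the start base followed by at least 4 bases that are each C or T. It was found for 19 of the 29 ribosomal protein genes with a window and for 4.64% of all 12728. In RPS15 and RPS4X no such tract began at the listed start.

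Other translation and proteostasis genes lay close behind. All 23 measured were above the olfactory receptor level, 19 in the top decile, with a median of 15.10. PPIA, cyclophilin A, read 130024 and 127790.4, EIF5A, a translation factor, 115539.8 and 111116, the chaperone gene HSP90AB1 62581 and 68265 and NPM1, nucleophosmin, 63656 and 67044. The dimmest was EEF1A2, the elongation factor of muscle and neurons, at 209.7 and 222. All 25 measured housekeeping genes were above the level too, 17 of them in the top decile.

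**Figure D2:**
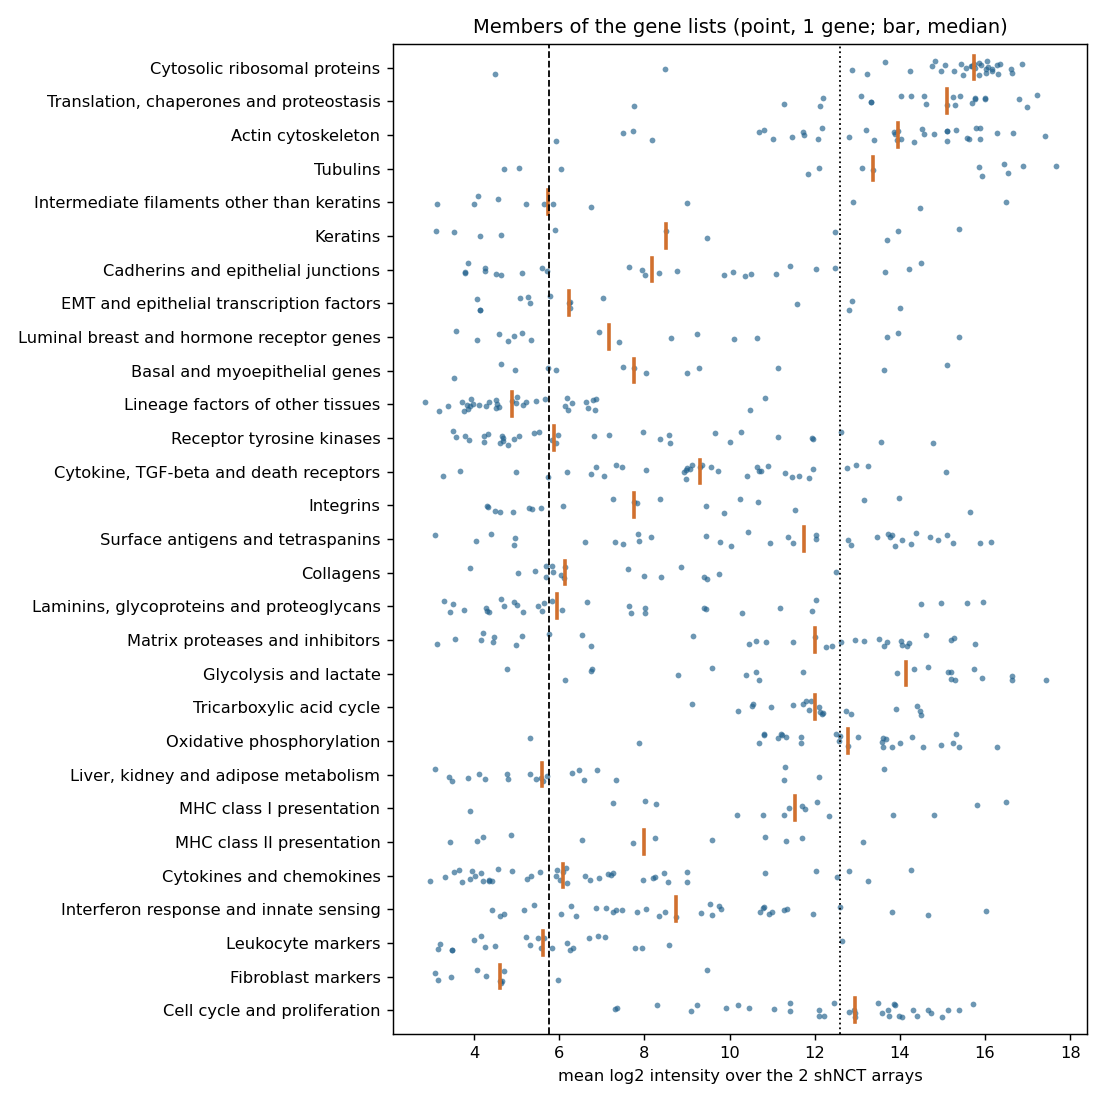
Mean log2 intensity over the 2 shNCT arrays for each measured member of selected gene lists (points, spread vertically for legibility), with the list median as a bar. The dashed line marks the olfactory receptor level and the dotted line the start of the top decile; ribosomal protein genes had the highest median (15.73) and fibroblast markers one of the lowest (4.62).

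In the actin cytoskeleton, all 36 measured genes were above the olfactory receptor level and 24 lay in the top decile, with a median of 13.95. After ACTG1 came PFN1, profilin, which feeds actin monomers to growing filaments (101159 and 105587), TMSB4X, the monomer-binding thymosin beta 4 (83181 and 76866), MYL12B, a regulatory light chain of non-muscle myosin (60085 and 59931), and TMSB10 (58306 and 61675). The dim end held genes of smooth muscle and myoepithelium. TAGLN, transgelin, read 198 and 229.7, ACTA2, smooth muscle actin, 188 and 177, and CNN1, calponin, 69.8 and 52.6. Actin genes are close paralogs, and so is skeletal ACTA1, which read 5676 and 6860.0; shared signal between them could not be separated.

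Tubulins followed the same pattern, with 11 of 13 above the level and 8 in the top decile. TUBB read 93098 and 97326, TUBB4B 88229 and 89203 and TUBG1, the gamma-tubulin of the centrosome, 63448 and 60971. TUBA8 (28.8 and 38.2) and TUBB1, the platelet form (26 and 26.1), were not above the level.

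Intermediate filaments divided sharply. Besides VIM, the nuclear lamin genes LMNA (21617 and 23988) and LMNB1 (7234 and 8157) lay in the top decile. The filament genes of muscle and neurons, DES (28.3 and 19.6), PRPH (34.8 and 39.9), NEFL (16.4 and 18), INA (13.6 and 18.9) and NEFM (8.2 and 9.4), were not above the olfactory receptor level, and in all 6 of 12 were not. NES, nestin, lay just over it at 88.5 and 131.

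Keratins of simple epithelia were bright and the basal pair was not. KRT8 read 44887 and 40892, KRT18 15039.6 and 16707 and KRT19 12756 and 14043, all in the top decile, and KRT7 read 5989.7 and 5449. KRT5 (26.1 and 23.6) and KRT14 (10.1 and 13.4), with KRT13 (8.6 and 8.6) and KRT23 (13.4 and 23), were not above the level. In all, 7 of 11 measured keratins (63.6%) were above it, near the 65.8% of all probe sets.

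Of the markers for a mesenchymal-like line, 7 of 8 that should be high were in the top decile. These were VIM, the hyaluronan receptor CD44 (13277 and 14789.6), the receptor kinase AXL (29660.4 and 26363), the repressor ZEB1 (7053 and 7963), caveolin CAV1 (36488 and 34336), moesin MSN (40584 and 41493) and the TGF-beta receptor TGFBR2 (9943 and 9693). The matrix gene SPARC went against the label, with intensities of 19.4 and 20.1 that were not above the olfactory receptor level. Of 8 measured markers that should be low, 2 were not above the level, 1 was above it on 1 array and 5 were above it. The share above it over all probe sets was 65.8%, so this count lay near that share. CDH1, the E-cadherin gene, read 11.4 and 16.5, a level of 3.78 ± 0.38, and FOXA1, a pioneer factor of luminal cells, 29.9 and 25.6. CLDN3 read 62 and 43.9. The epithelial genes EPCAM (937 and 936), CLDN4 (2796 and 2649.5) and CLDN7 (1463 and 1193), and the luminal factor GATA3 (115 and 129), were above the level, and KRT19 was in the top decile. EPCAM, CLDN4 and CLDN7 also exceeded the strict floor.

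**Figure D3:**
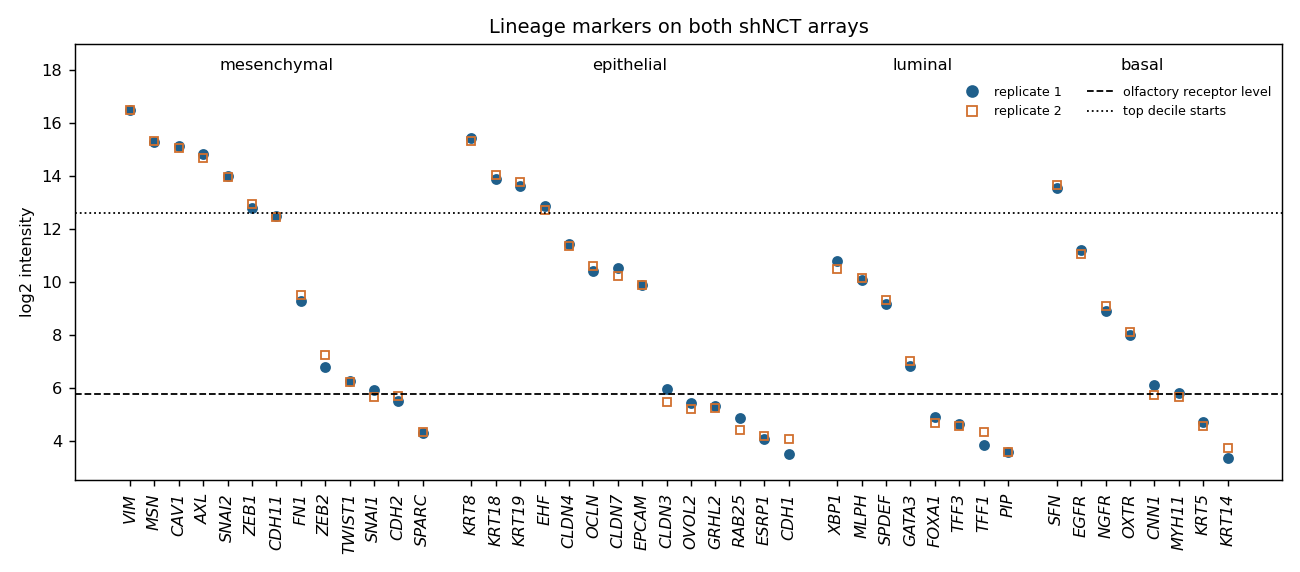
Log2 intensity of mesenchymal, epithelial, luminal and basal genes on shNCT replicate 1 (filled circles) and replicate 2 (open squares), ordered by level within each set. The dashed line is the olfactory receptor level and the dotted line the start of the top decile; VIM lies at 16.50 and CDH1 at 3.78.

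Among junction genes, 16 of 26 (61.5%) were above the olfactory receptor level and 3 (11.5%) in the top decile, near the 65.8% and 9.56% of all probe sets. The catenins CTNNB1 (21695 and 24538) and CTNNA1 (19359 and 18418), which link cadherins to actin, and PKP2, a desmosomal plakophilin (11552 and 14324), were the brightest. CDH11, a cadherin of mesenchymal cells, read 5844 and 5633 and TJP1, the tight junction scaffold, 4460.2 and 3869. The epithelial protease gene ST14 (19.3 and 18.7), the desmosomal gene DSG3 (12.2 and 17.3) and CDH6 (13.4 and 14.1) were not above the level.

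The transcription factors of this programme were uneven. SNAI2, which encodes the repressor Slug, read 16695 and 16095, and ZEB1 was also in the top decile, whereas ZEB2 read 112 and 153. TWIST2 (34.1 and 33.8) and FOXC2 (15.8 and 19.4) were not above the olfactory receptor level. Neither were the epithelial factors GRHL1 (15.2 and 18.9) and GRHL2 (39.8 and 37.6) or ESRP1, the epithelial splicing factor (16.8 and 18.3). Yet EHF, an ETS factor of epithelia, read 7442 and 6837 and KLF5 3024 and 3121. Of the list's 15 measured genes, 8 (53.3%) were above the level, against 65.8% of all probe sets. That count became 5 with the floor at the 99th percentile of olfactory receptors and 4 with the strict floor. It stayed at 8 with the reduced floor.

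For luminal genes, 9 of 16 measured (56.25%) were above the level, against 65.8% of all probe sets, and 3 of the 9 were the keratins named above. XBP1, a factor of the unfolded protein response, read 1769 and 1452 and MLPH, melanophilin, 1067 and 1149. The secreted trefoil genes TFF1 (14.4 and 20) and TFF3 (24.7 and 23.7), the prolactin receptor gene PRLR (28.9 and 33.1) and PIP (11.8 and 12) were not above it. Basal and myoepithelial genes were mixed too, with 9 of 13 above the level, which is 69.2% against 65.8% of all probe sets; 5 passed the strict floor and 8 the reduced one. SFN, the 14-3-3 sigma gene, read 12034 and 13089 and CAV2 660.1 and 592, while TRIM29 (39.2 and 24.7) and MYH11 (56.1 and 50), smooth muscle myosin, were not above it.

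Nuclear receptors were mostly of middling signal: 16 of 19 were above the olfactory receptor level and 0 in the top decile, with 8 past the strict floor and 16 past the reduced one. NR3C1, the glucocorticoid receptor gene, read 4239.7 and 5334, RXRB 3389.5 and 3415, PPARD 1845 and 1883 and the vitamin D receptor gene VDR 1272 and 1165. ESR2, which encodes oestrogen receptor beta, was not above the level (16.5 and 17.1).

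Receptor tyrosine kinases formed a short list of strong signals over many weak ones. Of 34 measured, 15 were above the olfactory receptor level, which is 44.1% against 65.8% of all probe sets. AXL, the receptor for GAS6, read 29660.4 and 26363, ROR1, a Wnt5a receptor, 12507 and 11713, MET, the hepatocyte growth factor receptor, 5923 and 6733, EPHA2 4199.9 and 3836 and EGFR 2352 and 2129. FLT1 (12 and 11.7), NTRK2 (12.7 and 10.2), ROR2 (16 and 12.1), EPHA1 (13.7 and 15.8), FLT3 (21.5 and 16.3) and PDGFRA (25.5 and 25) were not above it.

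Of G protein-coupled receptors, 21 of 33 (63.6%) were above the level, again near the overall share. With the strict floor the count was 14, and with the reduced floor 21. LPAR1, a receptor for lysophosphatidic acid, read 31560.0 and 32155, the adhesion receptor gene ADGRE5 28532 and 28611, the Wnt receptor gene FZD6 9553 and 9347, CXCR4, the receptor for the chemokine CXCL12, 7214 and 6783 and the adenosine receptor gene ADORA2B 5456 and 4736. ACKR3, the other CXCL12 receptor, was not above the olfactory receptor level (18.2 and 18.6). Nor were the neural receptors HTR2A (14 and 12.8) and MC4R (15.1 and 12.6).

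Cytokine and death receptors were more uniformly present, with 31 of 35 above the level. TNFRSF12A, the TWEAK receptor gene, read 31553 and 37696, IL6ST, the shared gp130 subunit, 7822 and 8156, and IFNGR2 7382 and 6578. The interleukin-2 receptor genes of lymphocytes, IL2RA (18.5 and 8.9), IL2RB (10.2 and 9.1) and IL2RG (31.5 and 31.9), were the 3 not above it on either array.

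Integrins gave 13 of 21 above the level, a share of 61.9% that lay near the 65.8% of all probe sets; 8 passed the strict floor and 12 the reduced one. ITGB1, the common beta-1 subunit, read 50150.3 and 52376, and its laminin-binding partners ITGA3 16554 and 15669.5 and ITGA6 8688 and 9741 were in the top decile with it. The collagen receptor subunit ITGA2 read 2828 and 3099 and the fibronectin receptor subunit ITGA5 1447 and 1852. ITGAM (22.1 and 22.9), ITGB7 (20.5 and 19.3) and ITGA4 (22.5 and 26.6), subunits of leukocytes, were not above the level.

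Surface antigens were strong as a list, with 31 of 36 above the level and 16 in the top decile. NT5E, the CD73 enzyme that makes adenosine, read 71353 and 72148, and CD55, which protects cells from complement, 58780.5 and 61643. BSG, the CD147 glycoprotein, read 37895 and 40503, and SLC3A2 and SLC7A5, which together import large amino acids, 29962 and 30739 and 27656 and 25627. CD24, a mucin-like antigen often read together with CD44, lay at the middle of the ranking at 201 and 263, brighter than 49.0% of probe sets, while CD44 was brighter than 95.6%. In such bulk arrays a small share of positive cells and a low level in every cell cannot be told apart. PROM1 (30.6 and 31.6), THY1 (9.7 and 7.4) and VCAM1 (14.4 and 19) were not above the level.

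No collagen lay in the top decile on both arrays. Of 18 measured, 12 (66.7%) were above the olfactory receptor level, close to the 65.8% of all probe sets, and the median was 6.13 against 7.98 for all. COL8A1, a short-chain collagen, read 5728 and 5865, COL4A2 697 and 1065, COL1A2 726 and 689, COL12A1 661 and 685 and COL13A1, a transmembrane collagen, 378 and 575. COL13A1 and COL4A2 were both higher on replicate 2. With the strict floor the count of collagens was 6, with the reduced floor 10 and with the 99th percentile of olfactory receptors 8.

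Glycoproteins were split, with 16 of 32 above the level, or 50%, and 14 on neither array; 10 passed the strict floor and 15 the reduced one. THBS1, thrombospondin, read 62351 and 65019, the galectin gene LGALS1 48391 and 49902, and CCN2 and CCN1, matricellular targets of YAP, 31375 and 32557 and 23585 and 22832. LAMC1, the common laminin gamma chain, read 3999 and 4406. SPP1, osteopontin (12.2 and 7.9), the proteoglycan gene BGN (8.9 and 13.1), THBS2 (11.9 and 11), POSTN (19.5 and 19.2), LUM (28.8 and 21.1) and DCN (34.6 and 19.4) were not above the level.

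Proteases and their inhibitors gave 24 of 33 above the level (72.7%) and 13 in the top decile (39.4%). The shares over all probe sets were 65.8% and 9.56%. TIMP1 read 55678 and 54881 and TIMP3 38611 and 41065, both inhibitors of metalloproteinases, the lysosomal protease gene CTSD 26418 and 23830.3 and CST3, cystatin C, 17374 and 20632. MMP7 (8.1 and 9.4), MMP12 (14.3 and 9.7), MMP10 (15 and 21.4), MMP2, gelatinase A (18.1 and 18.9), and MMP13 (24.3 and 19.5) were not above it. Among other genes of membrane and calcium binding, ANXA1 read 77912 and 71779.8, S100A11 71767 and 76012 and ANXA5 56960.3 and 50505. The skin and myeloid forms S100A7 (15.8 and 10.6) and S100A12 (8.2 and 10.7) were not above the level.

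Growth-related transcription factors were nearly all present, with 42 of 45 above the level and a median of 11.13. HMGA1, a chromatin protein of proliferating cells, read 65636 and 70358, FOSL1, the AP-1 subunit Fra-1, 23192 and 24989, KLF6 15198 and 16728, RUNX1 11513 and 13621 and MYC 12440.2 and 12522. RUNX3 (16.4 and 18.2) and ID2 (30.4 and 30.2) were not above it. Lineage factors of other tissues had the opposite picture, with 11 of 35 above the level, 24 on neither array and a median of 4.89. Of the 11, 2 passed the strict floor, MITF, the melanocyte factor (1645 and 2033), and FOXA2, of endoderm (1622 and 1258), while 10 passed the reduced floor and 6 the 99th percentile of olfactory receptors. PAX6 (6.5 and 7.9), GATA4 (8.6 and 9.6), OLIG2 (12.5 and 8.9), SOX1 (15.7 and 11.1) and NANOG (11.8 and 15.5) lay at the bottom.

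Most lists of markers of other cell types were weak. The share above the level was 41.7% for leukocyte, 9.09% for fibroblast, 20% for erythroid, 23.1% for neuronal and 25% for muscle markers. For endothelial markers it was 55.6%, the nearest to the 65.8% of all probe sets. Leukocyte markers had 10 of 24 above the level (2 with the strict floor, 10 with the reduced one), a median of 5.61 and summed intensities of 8464 and 8033, most of it from CD68, a lysosomal protein that other cells make too (6524 and 6286). The pan-leukocyte gene PTPRC (39.3 and 35.6), the B cell gene MS4A1 (21.5 and 11.8) and the T cell gene CD3G (14 and 9) were not above it. Fibroblast markers had 1 of 11, COL1A2, and summed to 961 and 918. Erythroid markers had 1 of 5, HBA1 (96 and 69.4), endothelial markers 5 of 9, neuronal markers 3 of 13 and muscle markers 3 of 12. Only ESAM, an endothelial adhesion gene, was in the top decile (10303 and 9675) among those last 4 lists, and PECAM1 was not above the level (17.5 and 13.8). With the strict floor the endothelial count was 1, the muscle count 1 and the erythroid count 0, and with the reduced floor they were 3, 2 and 1. Whether any such signal came from other cells was not tested.

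Energy metabolism was strongly represented. In glycolysis 21 of 22 genes were above the level and 12 in the top decile, with a median of 14.14. ENO1, enolase, read 100177 and 102838, LDHA, which makes lactate, 103321 and 99577, PKM, pyruvate kinase, 62874 and 62675 and ALDOA, aldolase, 54091 and 55794. The liver pyruvate kinase gene PKLR was the exception (32.8 and 22.7). All 20 genes of the tricarboxylic acid cycle were above the level, from IDH3G (22991 and 23198) at the bright end to IDH2 (575 and 531) at the dim end, with a median of 12.01. For oxidative phosphorylation 28 of 29 were above it and 15 in the top decile, led by ATP5F1B, the ATP synthase beta subunit (79729.7 and 78566), and COX8A (41692 and 43883). COX7A1, the muscle form of a cytochrome oxidase subunit, was the one not above it (41.5 and 38.7).

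Redox genes gave 23 of 25 above the level, with TXN, thioredoxin (63639 and 66162), FTL, ferritin light chain (50037 and 55089.9), and PRDX1, a peroxiredoxin (40794 and 43037), the brightest. HMOX1, haem oxygenase (42.4 and 49.4), and AKR1B10 (16 and 17.9) were not above it. In lipid metabolism 22 of 26 were above the level. G0S2, an inhibitor of fat breakdown, read 29029.7 and 31377, ACLY, which makes cytosolic acetyl-CoA, 18149.6 and 17368, and ELOVL6 and SCD, which lengthen and desaturate fatty acids, 8859 and 8469.7 and 6666 and 7415. Fat storage and uptake genes of adipocytes, PLIN1 (13.4 and 10.4), CD36 (27.4 and 40) and LPL (51.5 and 50.8), were not above it. Amino acid and nucleotide genes gave 25 of 27 above the level, led by SHMT2, mitochondrial serine hydroxymethyltransferase (41729 and 42255), MAT2A (34629 and 33081), PSAT1, of serine synthesis (30704 and 29442), and RRM1, of ribonucleotide reductase (28539 and 30519). The 2 exceptions were NNMT (33.3 and 35.6) and MTAP, which salvages methionine from methylthioadenosine (17.5 and 19.3). Genes of liver, kidney and fat gave 9 of 22, with 4 past the strict floor and 9 past the reduced one. APOB (8.8 and 8.2) and G6PC1 (11.9 and 9.7) were at the bottom, yet FBP1, the gluconeogenic fructose bisphosphatase, was in the top decile (12961 and 12324).

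In antigen presentation, 15 of 16 class I genes were above the level. The chaperones CALR (91766 and 91584) and CANX (56471 and 57877) led, B2M, the light chain, read 32644 and 24611, and TAP1, the peptide transporter, 297 and 229. NLRC5, the class I transactivator, was the one not above it (12.6 and 17.7). Class II genes, mainly known from professional antigen-presenting cells, had 8 of 12 above the level, a share of 66.7% that is close to the 65.8% of all probe sets. CD74, the invariant chain, read 8297 and 9636, HLA-DRA 3373 and 3336, HLA-DRB1 2771 and 2415, HLA-DMA 1821 and 1858 and HLA-DPB1 731 and 806. The DQ and DO genes did not follow: HLA-DQA1 read 29.2 and 29.7, HLA-DQB1 10.9 and 10.8, HLA-DOA 18.5 and 18.3 and HLA-DOB 17.6 and 16.2. HLA genes are polymorphic and paralogous, which can affect probe binding.

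Cytokines had 22 of 43 above the level, or 51.2%; 11 passed the strict floor and 21 the reduced one. The brightest were the angiogenic factors VEGFA (19999 and 18993) and VEGFC (7016 and 7409.8), the macrophage factor CSF1 (9464 and 10016), MIF (5622 and 6261) and IL11, a gp130 cytokine (4290.2 and 4051). IL10 (7.2 and 8.5), CCL20 (8.4 and 11.8), LTA (11.3 and 11.7), IL12B (18 and 8.6) and IFNG (12.1 and 14.2) were at the bottom. Of interferon-response genes 30 of 35 were above the olfactory receptor level, with 20 past the strict floor and 29 past the reduced one. The membrane antiviral genes IFITM3 (67073 and 65767), IFITM2 (25569.6 and 25845) and IFITM1 (13662 and 15234) were the 3 in the top decile, while MX2 (24.7 and 18.5), IRF7 (25 and 24.2), IFI44L (25.1 and 27.5) and OAS1 (36.7 and 35.1) were not above the level. In the complement and coagulation list 9 of 22 were above it. These included CD59 (17416 and 16710.3), F3, tissue factor (16219.5 and 15788), and its inhibitors TFPI (5911 and 4992) and TFPI2 (3596 and 3293), whereas C1S (9.2 and 11.5), C3 (17.4 and 15.1) and the fibrinogen gene FGA (10.8 and 11) were not.

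All 35 measured cell cycle genes were above the level and 20 in the top decile. The mitotic kinase genes PLK1 (52379 and 54557) and AURKA (31915 and 32635), CDC20, which activates the anaphase-promoting complex (43533 and 41739.6), and the cyclins CCND1 (35504 and 36677) and CCNA2 (27541 and 26527) were the brightest. The dimmest were the inhibitor genes CDKN2B (151 and 169) and CDKN1C (188 and 144).

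CDKN2B and MTAP lie on either side of CDKN2A, on the short arm of chromosome 9, in a stretch that many tumours lose. In RefSeq order, 15 genes measured there from FOCAD to DMRTA1 comprised 10 type I interferon genes, which resting cells do not use, and 5 others. Of the 15, 13 were above the olfactory receptor level on neither array, as were 31.3% of all probe sets; 9 of the 13 were interferon genes. The ends of this stretch were set after the values had been seen. FOCAD read 26.8 and 29.7, HACD4 8.6 and 13.4, MTAP 17.5 and 19.3 and DMRTA1 11.5 and 11, all not above it, and CDKN2B at 151 and 169 was the only one above it on both arrays. The interferon gene IFNA14 exceeded it on 1 array. On one side, the next measured gene was MLLT3, at 1456 and 1514, and on the other side came TUSC1 (166 and 174), CAAP1 (2446 and 1841) and PLAA (2311 and 2281), all above it. Farther out the levels were mixed, since SLC24A2 (13.3 and 10.4), beyond MLLT3, and EQTN (15.4 and 19.8), beyond PLAA, were not above it and ACER2 (44.5 and 53.7) was above it on 1 array. FOCAD, HACD4, IFNA14, SLC24A2, EQTN and ACER2 were named after their values had been seen. CDKN2B and TUSC1 exceeded the reduced floor but not the strict one. The gene list for this region reached beyond both ends of the stretch. Of its 9 measured genes, 6 were above the olfactory receptor level, or 66.7%, near the 65.8% of all probe sets. DNA copy number was not measured.

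**Figure D4:**
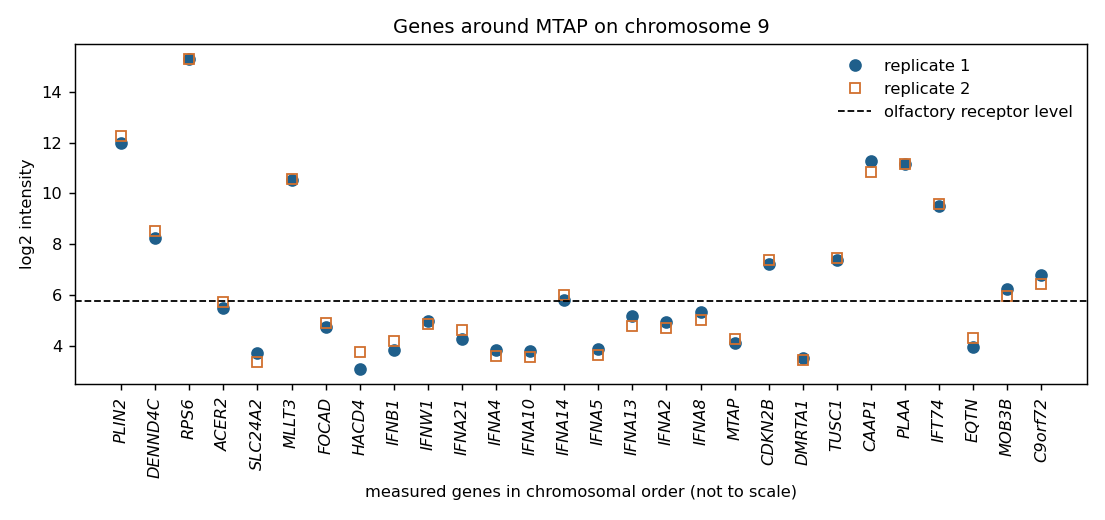
Log2 intensity on shNCT replicate 1 (filled circles) and replicate 2 (open squares) of 28 measured genes of chromosome 9 from PLIN2 to C9orf72, in RefSeq order and not to scale. The dashed line is the olfactory receptor level; FOCAD to DMRTA1 lie below or near it except CDKN2B, at 7.32.

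Level went along with base composition of the promoter, which the ranking did not use. CpG dinucleotides are depleted from most of the genome but kept in CpG islands, which mark the promoters of broadly used genes. The median ratio of observed to expected CpG in the 300-base window was 0.846 for 8612 genes above the olfactory receptor level and 0.440 for 3769 that were not. From the dimmest to the brightest decile of the ranking it was 0.363 and 0.870, and Spearman's rho between level and the ratio was 0.427 across 12728 genes, which are not independent of each other. A TATA box was read as TATAAA within 50 bases before the start, on the strand with the sequence of the transcript. It stood in 6.98% of promoters of genes not above the level, 1.99% of those above the level and 3.50% of all. The share did not decline steadily: it was 0.892% in decile 7 and 3.21% in decile 10.

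**Figure D5:**
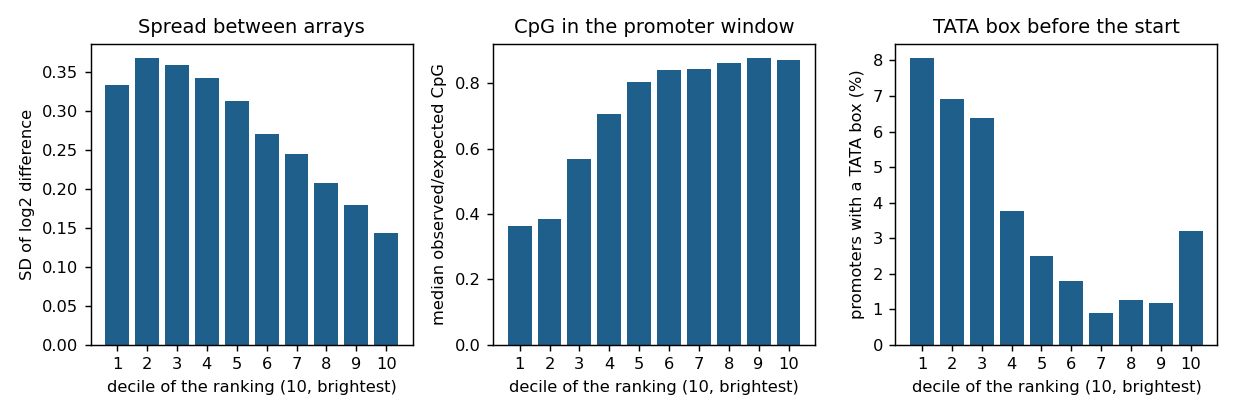
Quantities over deciles of the ranking by mean log2 intensity (1, dimmest; 10, brightest): the spread (SD) of the difference in log2 level between both arrays, the median observed over expected CpG in the promoter window, and the percentage of promoters with a TATA box. The SD was 0.334 in the dimmest decile and 0.143 in the brightest.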

How the data were processed

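Total RNA was labelled for whole-transcript arrays, per the labels' protocols. The authors deposited processed intensity values on a linear scale, 1 for each probe set in each sample. Transcriptome Analysis Console made them, per the submitters' processing notes. Which release and which background, summary and scaling steps it used is not given in the sources. No detection calls, scan dates or coordinates were used.

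The log2 of each deposited intensity was taken with no further scaling. The platform annotation named 15674 of 16965 probe sets with 1 symbol, 0 with several; the other 1291 are unnamed here. All 15674 matched RefSeq (GRCh38.p14) by gene identifier, and 0 symbols changed. Levels are means over the 2 shNCT arrays; a gene with several probe sets is read by its brightest. Nothing was compared between conditions, so no test was run; the number of arrays limits the precision.

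Genes were named by rule: 10 fixed genes, the 30 brightest, the 5 brightest and 5 dimmest of each of 44 lists, the 10 most uneven and the 20 brightest in no list, plus the fixed cell type markers. Lists and members were chosen with earlier results of these data known. Promoter windows are the first listed per gene. Alternatives were other levels, scaling, single arrays, 1 probe set per gene and all probe sets. Python 3.11.15, numpy 2.4.6, pandas 2.3.3 and scipy 1.17.1 were used. The classification code was checked on simulated data with expressed and silent levels set well apart. That check does not bear on genes near the level.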

Additional observations from a re-analysis of the deposited data

How the results depend on the processing

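The count of probe sets above the olfactory receptor level, 10309, was 10997 with the level at the 90th percentile and 9330 at the 99th. It was 7569 with the strict floor and 10009 with the reduced floor (an alternative chosen after seeing the data). Without replicate 1 it was 10669, and without replicate 2 it was 10406. All were within 1.5 times the main count. Quantile normalization over all 6 arrays, knock-downs included, gave 10310. The floor is a percentile within each array. Scaling that keeps each array's order, as quantile normalization and median centring do, could hardly change this count or the list counts below. Over the lists, 709 members were above the level, with a range of 557 to 757. Of 352 counts for single lists under these settings, 22 moved by over 1.5 times, 14 of them with the strict floor, 1 with the reduced floor and 1 when replicate 1 was left out, where fibroblast markers went from 1 to 2. Of 2225 levels of named genes, 51 moved by more than their SD, 29 under quantile normalization and 22 under median centring. With 2 arrays, neither leaving out 1 array nor averaging intensities before the log can move a level by more than its SD. The outcome of those settings was thus fixed in advance and says nothing about stability. No paired analysis was possible because 1 group is described and no result comes from a test. Dim genes are limited by signal near background, and no interval was computed from 2 arrays.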

Other observations

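Cancer-testis antigens, which normal tissue outside the germline hardly uses, gave 10 of 20 measured genes above the olfactory receptor level. That is 50%, against 65.8% of all probe sets. The list had 0 genes in the top decile and a median of 5.71, against 7.98 for all. SSX1 read 1433 and 1543, CT83 1200.4 and 1149.8, PAGE5 589 and 649.8 and PAGE2 210.1 and 304, while GAGE1 (9.7 and 10.8), SYCP3 (13.6 and 9.3), DDX43 (12.6 and 10.2) and MAGEA10 (12.9 and 13.5) were not above it. The strict floor left 3 and the reduced floor 8. Some genes known mainly from other tissues had middling signal, above the strict floor: GAD1, which makes the neurotransmitter GABA (1086 and 1036), SYT1, a synaptic vesicle protein (630.3 and 689.6), and CKB, the brain creatine kinase (2319.9 and 2692).

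Keratin-associated proteins of hair were part of a family chosen as an alternative floor, and 4 of them were bright. KRTAP2-3 read 8123 and 7846, KRTAP2-1 4834 and 4090.0, KRTAP2-2 2649 and 2555 and KRTAP2-4 2354 and 1879. They are near-identical copies whose shared signal could not be separated, and they were named after their values had been seen.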
